A study of Mus musculus with 56 samples.

Results

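The cytosolic ribosomal proteins are the proteins that, with ribosomal RNA, build the 2 subunits of the ribosome that translates nuclear-encoded messages. They were taken as every gene whose symbol is Rpl or Rps followed by a number, with the suffixes a, l, x or y allowed, and Rplp0, Rplp1, Rplp2 and Rpsa. Symbols came from the RefSeq accession that the array design gives for each probe. Kinases with similar names and pseudogenes were left out. This gave 80 genes of the 20018 with a symbol on the array, 50 of the large and 30 of the small subunit, measured by 167 of the 55681 probes. Of these genes 28 had a single probe and 52 had several. Rps3a1, Fau and Rack1 also encode ribosomal proteins, but their symbols do not meet the rule, and they are described only beside the members.

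RNA was measured in lung, liver and forestomach (the squamous, non-glandular first part of the rodent stomach) of male MutaMouse, a transgenic strain carrying a lacZ reporter for scoring mutations, aged about 14 weeks. The mice had been given chrysene, a polycyclic aromatic hydrocarbon, by gavage in olive oil for 28 days in daily doses of 17.5 (D1), 50 (D2) or 150 (D3) mg per kg body weight, or olive oil alone (D0). Tissues were collected 72 hours past the final gavage. Each of the 56 arrays held the RNA of 1 tissue of 1 mouse in Cy5 against a reference RNA pooled from 11 mouse cell lines in Cy3. Lung had 5, 5, 3 and 5 mice from D0 to D3, and liver and forestomach had 5, 5, 4 and 5 each. Every value below is a log2 ratio of sample over reference, so it can be compared between arrays for 1 probe but not between genes. The tissues are bulk, and fewer cells that make a message and less of the message per cell cannot be told apart.

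Each cytosolic ribosome holds, with few exceptions, 1 copy of every core ribosomal protein, and cells make the set in step with ribosomal RNA. Many of the messages begin with a C followed by a run of pyrimidines, the 5' terminal oligopyrimidine (TOP) tract, through which mTOR signalling and the binding protein Larp1 control their translation. The P-stalk proteins Rplp0, Rplp1 and Rplp2 recruit elongation factors, Rpl5 and Rpl11 can bind Mdm2 and hold back p53 degradation, and Rps6 is the classic substrate of the S6 kinases. A few members have a second gene for a near copy, such as Rpl3l in striated muscle and Rpl10l and Rpl39l in testis.

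The start windows of members on which the results turn are shown because the TOP tract is the element that these genes are known to share. Each line gives 28 bases of the sense strand, from 8 bases before the RefSeq transcript start, on GRCm38.p6. Capitals mark a C followed by at least 4 bases that are each C or T, where that run begins within 5 bases of the annotated start.
Rps27 (chr3:90213629-90213656, minus strand): ctttcgctCCTTTCCggcggtgacgacc
Rps27l (first of its annotated starts, chr9:66946078-66946105, plus strand): tccccgccgCCTCTatcccggaagttgc
Rpl36a (chrX:134585646-134585673, plus strand): caggcaccgcctataaacttccgttgcg
Rpl36al (chr12:69184048-69184075, minus strand): gtcgctcaggttcagttccgacttccgc
Rps12 (chr10:23787190-23787217, minus strand): atgcggccaccgccggccttttcccctg
Rps24 (first of its annotated starts, chr14:24490670-24490697, plus strand): tggggtcCTTCCTTgcgcgttgatatga
Rpl31 (chr1:39367843-39367870, plus strand): ctcgcCTCCCCgtgacccggaagttgta
Rps15a (chr7:118116128-118116155, minus strand): tctgccatCTTCCCTCgccggtgagtga
Rplp2 (chr7:141447643-141447670, plus strand): gcgtcttcCTTTCgccgccggacgccgc
Rps6 (chr4:86857348-86857375, minus strand): agtcgggcCTCTTTTTCgtgacgcctcc
Rpl10 (chrX:74270808-74270835, plus strand): cagtggaagataggccgcctatataagg

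Rps27, Rps15a, Rplp2 and Rps6 had the tract exactly at the annotated start, Rps27l 1 base after it and Rps24 and Rpl31 just before it, and Rpl36a, Rpl36al, Rps12 and Rpl10 had none within 5 bases. Of the 60 members with a start window in the RefSeq table, 13 (21.7%) had the tract exactly at the start, against 3.01% of 27025 genes and 0 of 69 mitochondrial ribosomal protein genes. Within 5 bases of the start, 27 members (45%) had it, against 21.2% of all genes. The Rps12 window holds a pyrimidine run further downstream, outside the searched bases. An annotated start can lie some bases from the real one, so a missing match says only that these letters are not at that place.

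Of the 80 members, 76 were well above background in Cy5 on all 56 arrays, and no member spot was saturated. Rpl21 passed on 17 of 19 forestomach arrays. The remaining 3 members are the tissue-restricted copies. Rpl10l was not above background on any array, Rpl3l was above it on 4 lung arrays alone, and Rpl39l on 8 of 18 lung, 0 of 19 liver and 1 of 19 forestomach arrays. With the filter used for testing (above background on at least 3 arrays), 79 members were tested in lung and 77 each in liver and forestomach, and 79, 79 and 77 in the pairs of tissues.

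The arrays differed in ways that touch these genes. The share of probes above background was 49.0% to 56.7% in lung and 34.5% to 46.4% in liver. In forestomach it ran from 18.9% to 51.7%, with all arrays of slides 1 and 2 below all arrays of slide 3. Each slide held a single tissue, so tissue and slide cannot be told apart. Tissue markers matched the labels, since 10 of 10 hepatocyte genes were higher in liver than in lung, 8 of 8 alveolar type 2 genes were lower in liver and in forestomach than in lung, and 11 of 12 keratinocyte genes were higher in forestomach than in both other tissues. Glandular stomach genes varied widely among forestomach arrays (mean 0.30 to 7.07), and the lung arrays of D3 mice 17 and 19 carried skeletal muscle genes. Ribosomal protein probes made up 15.1% to 19.4% of the brightest 1% of probes on an array, so the LOWESS curve that normalized the bright end was fitted in part to these genes themselves.

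The mean log2 ratio of the members separated liver from the other tissues on every array. In D0 mice 1 to 5 it was -0.17, -0.17, -0.17, -0.16 and -0.26 in lung and -0.79, -0.90, -0.98, -0.89 and -0.97 in liver. In forestomach the same mice had 0.14, 0.08, -0.35, 0.02 and 0.18. All liver arrays lay below all lung and forestomach arrays, and the forestomach of mouse 3 lay below all D0 lungs. Over all doses the mean ran from -0.996 to -0.785 in liver (median -0.93, 19 arrays). In lung it ran from -0.27 to -0.07 (median -0.19, 18 arrays) and in forestomach from -0.35 to 0.18 (median 0.03, 19 arrays). The lung means include Rpl3l and Rpl39l, which were at or near background on most lung arrays. Over the 76 members above background on all arrays, the ranges were -0.20 to -0.056 in lung, -1.02 to -0.80 in liver and -0.33 to 0.19 in forestomach. Liver stayed below lung when each array was only centred on its median, without LOWESS, at -3.49 to -2.23 against -1.87 to -1.09, whereas forestomach then spread from -5.23 to -0.42 and its place relative to both other tissues depended on the slide.

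**Figure D1:**
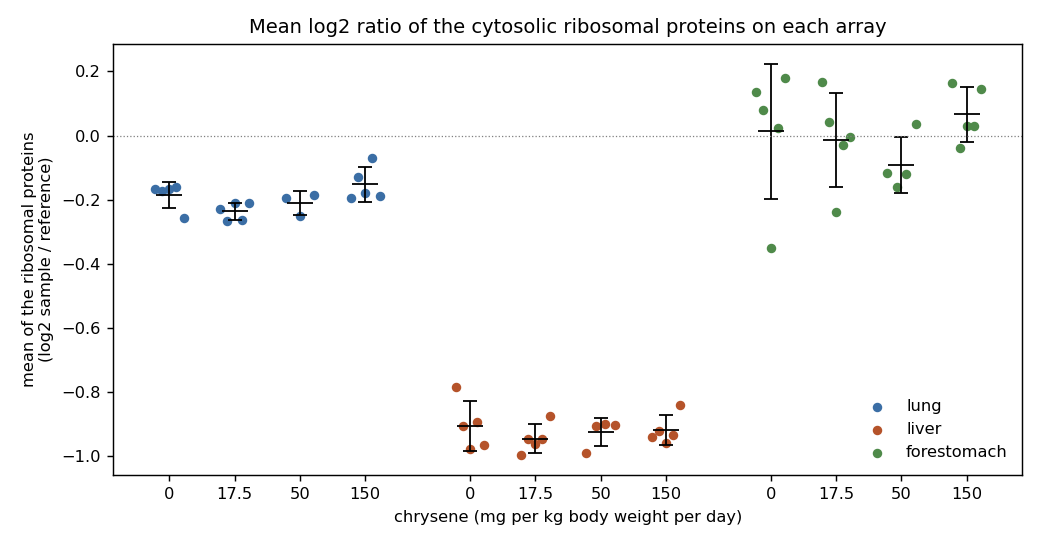
Mean log2 ratio (sample over reference) of the cytosolic ribosomal proteins on each of the 56 arrays (points), by tissue and chrysene dose in mg per kg body weight per day, with the group mean and SD (bars, n = 3 to 5 mice). All liver points lie between -0.996 and -0.785 and below every lung and forestomach point, while each dose group overlaps the vehicle group of its tissue. The lung means include Rpl3l, which was high on the D3 arrays of mice 17 and 19. With median centring in place of LOWESS liver stays below lung, but the place of forestomach changes with the slide.

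In D0 mice, most ribosomal proteins were lower in liver than in lung. In limma, with Benjamini-Hochberg adjustment over all probes, a call needed an adjusted p of at most 0.05 and at least a 1.5-fold difference. By these limits 60 of 79 members were lower in liver, where 26.9% of the 24490 genes tested were lower, and 2 were higher, where 22.2% of genes were. The median member differed by -0.84 on the log2 scale, with quartiles at -1.06 and -0.60, against -0.04 over all genes. Large subunit members had a median of -0.81 and small subunit members of -0.94. Median centring in place of LOWESS moved the median of all genes to -0.72 and that of the members to -1.37. It left 24 members called lower and 0 higher, given here without the share of all genes called under that scaling. For 69 of 79 members every D0 liver array lay below every D0 lung array, as for 33.9% of all genes, and for 3 every liver array lay above, as for 29.5%.

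Rps12, a small subunit protein, showed the largest of these differences. Its log2 ratios in lung were 0.16, 0.09, 0.09, 0.20 and 0.09, in liver -1.39, -1.46, -1.73, -1.43 and -1.68, and in forestomach 0.56, 0.21, -0.15, 0.49 and 0.27. The liver values did not overlap the others, and the forestomach values spread around those of lung. The liver minus lung difference was -1.66 ± 0.09 (SE, limma adjusted p = 8.6e-22). Rps12 also led the forestomach minus liver comparison at 1.81 ± 0.09 (limma adjusted p = 4.55e-23).

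Next in order were Rps27, a small zinc-binding protein of the small subunit, at -1.58 ± 0.13, Rps19, a small subunit maturation protein mutated in Diamond-Blackfan anaemia, at -1.55 ± 0.16, and Rps15a at -1.48 ± 0.14 (liver minus lung, log2). Among the proteins chosen by role, the P-stalk proteins Rplp2 and Rplp1 were lower in liver by limma, at -1.22 and -0.62, and Rplp0 differed by -0.53, below the 1.5-fold limit. Rpl5 (-0.61), Rpl11 (-0.76), Rps6 (-0.66), Rpsa (-0.75), the ubiquitin fusion Rps27a (-1.03) and the very small Rpl41 (-0.89) were all called lower. Rpl5 was no longer called without mouse 5 (-0.58). The 4 Rpsa probes did not all have the same sign, with differences from -0.82 to 0.36.

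Rps27l and Rpl36al went the other way. Rps27l is a near copy of Rps27 and a known p53 target, and Rpl36al a near copy of Rpl36a. Rps27l had log2 ratios of -0.21, -0.17, -0.18, -0.38 and -0.21 in lung and 1.18, 0.96, 1.01, 1.12 and 1.06 in liver. In forestomach it had -0.18, 0.20, 0.04, -0.95 and -0.17. All liver values lay above every lung and forestomach value, and the difference from lung was 1.30 ± 0.13 (limma adjusted p = 1.51e-12). Rps27 itself read 1.13, 1.16, 1.15, 1.15 and 0.84 in lung, -0.24, -0.52, -0.66, -0.60 and -0.46 in liver and 0.92, 0.77, 0.27, 0.95 and 0.79 in forestomach. Its liver values were the lowest without overlap.

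Rpl36al, measured by a single probe, had -0.13, -0.21, -0.24, -0.15 and -0.04 in lung, 0.53, 0.54, 0.45, 0.64 and 0.38 in liver and 0.37, 0.74, 0.21, -0.48 and 0.80 in forestomach. Liver lay above lung without overlap (0.66 ± 0.11, limma adjusted p = 1.62e-06), and forestomach spanned both. Rpl36a read -0.81, -0.98, -0.95, -0.88 and -1.11 in lung, -1.95, -2.01, -2.14, -2.07 and -2.23 in liver and -0.18, -0.53, -0.91, -0.29 and -0.29 in forestomach, with liver lowest on every array (-1.13 ± 0.12 against lung, limma adjusted p = 8.07e-12). Its 3 probes gave differences from -1.13 to -0.19. With median centring of the arrays, the Rps27l difference between liver and lung was 0.64 (limma adjusted p = 0.444) and that of Rpl36al was -0.03 (limma adjusted p = 0.974), so that neither call was kept, while the medians then lay at -0.72 over all genes and -1.37 over members. Over all doses, the lowest liver value of Rps27l was 0.92 and the highest lung value -0.17.

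**Figure D2:**
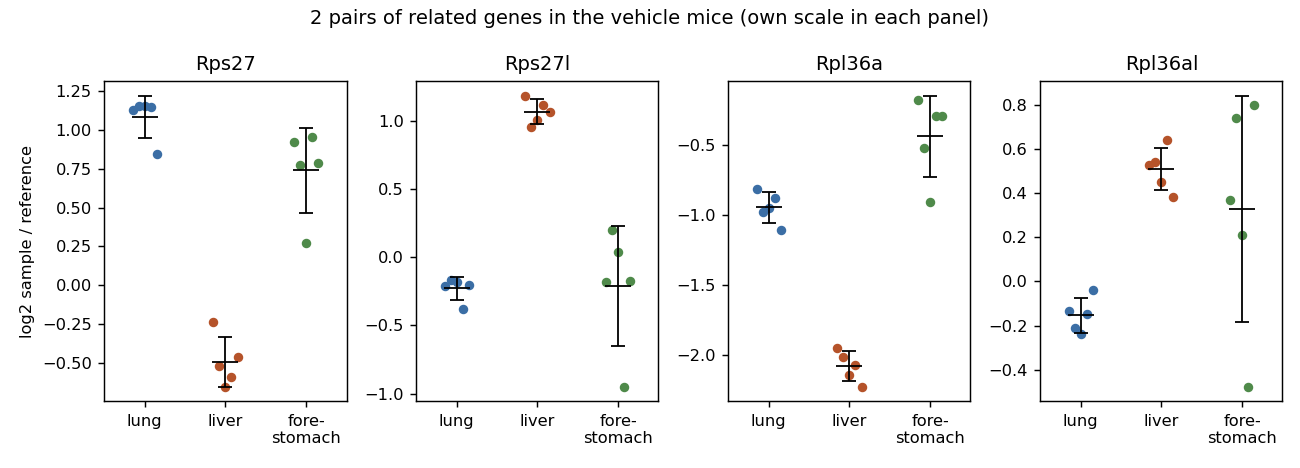
Log2 ratios of Rps27 and Rps27l and of Rpl36a and Rpl36al in the 5 vehicle mice of each tissue (points) with mean and SD (bars), each panel on its own scale, since levels of different probes cannot be compared. Liver has the lowest values of Rps27 and Rpl36a and the highest of Rps27l (mean 1.07 against -0.23 in lung). Under median centring the liver minus lung differences of Rps27l and Rpl36al are 0.64 and -0.03, beside a median of -0.72 over all genes.

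Forestomach and lung were closer. Of 79 members, 9 were higher in forestomach by the same limits, where 19.3% of the 24376 genes were, and 2 were lower, where 20.9% were. The median member differed by 0.15, against -0.01 over all genes. The members higher in forestomach were Rps21 (0.90 ± 0.19), Rpl4 (0.89 ± 0.12), Rps2 (0.89 ± 0.12), Rpl28 (0.87 ± 0.09), Rpl12 (0.72 ± 0.11), Rpl21, Rps3, Rps26 and Rpl39l. Rpl39l was above background on 1 of 5 forestomach and 3 of 5 lung D0 arrays. It is given without a fold, and its call is not read as a higher level in forestomach. This direction depended on the scaling, since the median was 0.44 with a loess fit of the scanner signals but -1.39 with median centring, which moved the median of all genes to -1.15. Without mouse 2 or without mouse 3, 14 members were higher.

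The members lower in forestomach than in lung were Rpl10, which joins the large subunit late in its assembly, and the P-stalk protein Rplp2. Rpl10 had log2 ratios of 0.62, 0.64, 0.54, 0.55 and 0.37 in lung, 0.11, 0.13, -0.03, 0.21 and 0.02 in liver and -0.75, -0.01, -0.60, -0.81 and -0.02 in forestomach. The lung values were highest without overlap, and forestomach fell into values near 0 for mice 2 and 5, both on slide 3, and values of -0.60 and below for mice 1, 3 and 4, on slides 1 and 2. The differences from lung were -0.98 ± 0.11 for Rpl10 (limma adjusted p = 1.77e-10) and -0.69 ± 0.15 for Rplp2 (limma adjusted p = 6.01e-05). The 3 probes of Rpl10 ran from -0.98 to -0.17. Without the forestomach arrays of slides 1 and 2, 0 members were lower in forestomach and 11 were higher. This setting left 2 D0 forestomach arrays, and its counts stand without the share of all genes called.

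Forestomach exceeded liver for most members. By the same limits 65 of 77 were higher, where 23.7% of the 22718 genes were, and 1, Rps27l, was lower (-1.28 ± 0.13), where 20.0% were. The median member differed by 0.95, against 0.04 over all genes, and for 63 members all D0 forestomach arrays lay above all D0 liver arrays, as for 21.7% of genes. Without mouse 2 or without mouse 5, 2 members were lower. With median centring the median was -0.01, against -0.23 over all genes, and 0 members were called higher. Without slides 1 and 2, which left 2 D0 forestomach arrays, the median was 1.07 with LOWESS and 2.42 with median centring.

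After Rps12, the largest forestomach minus liver differences were those of Rpl31, Rps24 and Rpl36a. Rpl31, a large subunit protein near the exit of the peptide tunnel, read -1.48, -1.65, -1.61, -1.63 and -1.52 in liver and 0.34, -0.09, -0.24, 0.78 and 0.30 in forestomach (1.80 ± 0.12, limma adjusted p = 2.65e-18, with 1.14 to 1.80 over its 4 probes). Rps24, another gene of Diamond-Blackfan anaemia, read -0.62, -0.92, -0.84, -0.77 and -0.87 in liver and 1.07, 0.81, 0.40, 1.13 and 1.08 in forestomach (1.70 ± 0.10, limma adjusted p = 3.21e-20). Neither gene's values overlapped. Rpl36a differed by 1.64 ± 0.12, and Rplp0, often used as a reference gene for qPCR, by 0.97 ± 0.09. Rplp0 had -0.18, -0.26, -0.25, -0.20 and -0.06 in lung, -0.72, -0.60, -0.76, -0.70 and -0.79 in liver and 0.22, 0.31, 0.30, 0.15 and 0.31 in forestomach, so that its D0 values in the 3 tissues did not overlap.

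**Figure D3:**
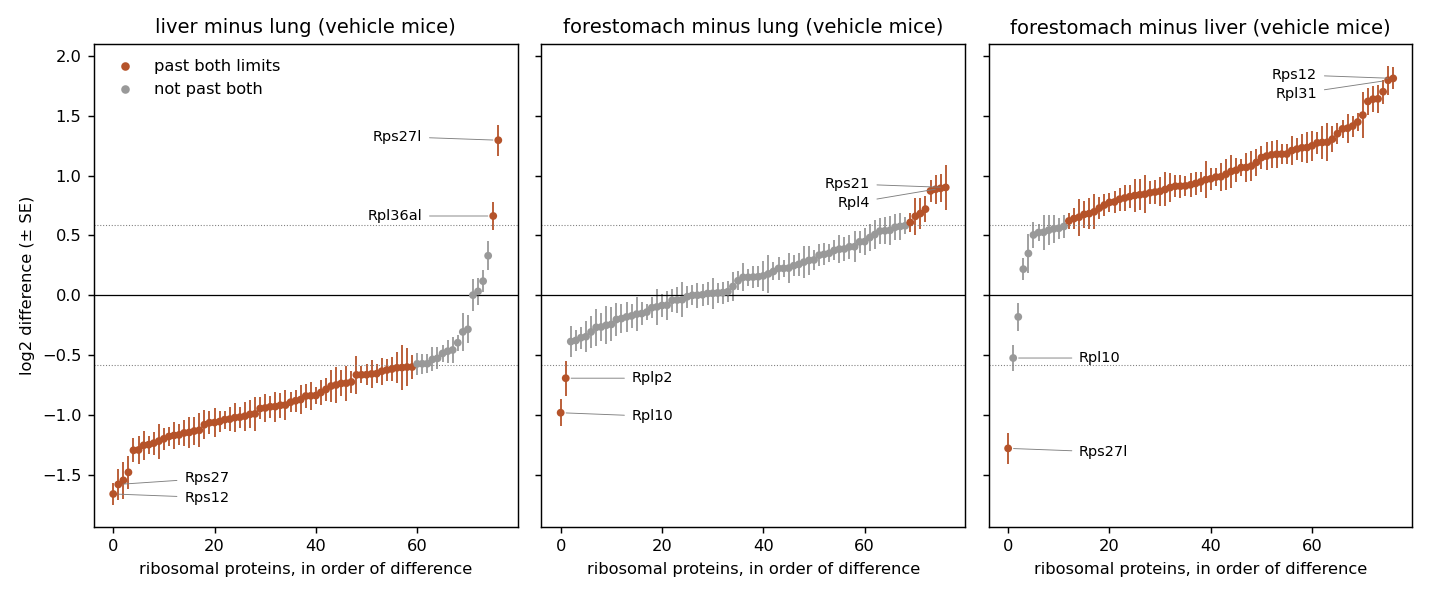
Log2 difference between tissues in vehicle mice for each member (points, with limma's SE pooled over the 3 tissues), in order of size, for 3 pairs of tissues. Coloured points passed both limits (adjusted p of at most 0.05 and 1.5-fold, dotted lines), which was 60 lower and 2 higher for liver minus lung. Rpl3l and Rpl39l, at or near background, are not drawn. With median centring the forestomach differences shift, to a median of -1.39 against lung and -0.01 against liver.

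Among the 76 members above background on all arrays, the D0 mean was lowest in liver for 70, in lung for 5 and in forestomach for 1. It was highest in forestomach for 47, in lung for 27 and in liver for 2. These ranks are for the LOWESS ratios and stand without the share over all genes. The place of forestomach among the tissues changed with median centring, as given above. Different probes of a gene gave the same sign for 38 of 50 genes with several usable probes in liver minus lung, for 32 in forestomach minus lung and for 48 in forestomach minus liver. Rps27 (4 probes, -1.63 to -1.28 in liver minus lung) and Rps12 (2 probes, -1.66 to -1.48) were among those that kept it. Ribosomal protein genes have many processed pseudogenes, 24 symbols in the reference table for Rpl31 and 23 for Rps12, and a probe may also bind their transcripts.

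Other genes of protein synthesis did not all follow the members. Of 77 tested mitochondrial ribosomal proteins, which build the separate ribosome of mitochondria, 44 were higher in liver than in lung and 1 was lower (median 0.65). Mrps27 was higher by 2.24 and Mrpl15 by 2.16 in that comparison. They were also higher in forestomach than in lung (44 higher, 0 lower, median 0.63), and between forestomach and liver 6 were higher and 12 lower (median -0.06). With median centring 0 were called in liver minus lung (median -0.24, against -0.72 over all genes), and in forestomach minus lung the direction turned, with 65 lower. The share of all genes called under median centring is not given beside these counts or those of the lists below.

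Of 23 translation factors and other messages of the TOP class, 0 were higher and 14 lower in liver than in lung (median -0.73), 3 higher and 6 lower in forestomach than in lung, and 12 higher and 0 lower in forestomach than in liver, where median centring gave 0 higher and 1 lower. They included Npm1, a nucleolar chaperone (-1.44 in liver minus lung), and Rack1, a scaffold on the small subunit (-0.73), whereas the elongation factors Eef1a1 (0.23) and Eef2 (-0.10) did not pass in that comparison. Of 33 ribosome biogenesis genes, 7 were higher and 5 lower in liver than in lung, and 16 higher and 2 lower in forestomach than in lung, but 0 and 26 with median centring. Of 11 regulators, 7 were higher and 3 lower in liver than in lung, among the former Mtor (1.35) and Myc (1.14), with 0 higher under median centring. Among 7 genes near the naming rule, Rps3a1, a core small subunit protein, differed by -1.50 in liver minus lung, Fau by -0.66 and Rpl22l1 by -0.67, whereas Rpl7l1 differed by 1.54. Some genes of other cells and states also differed in these contrasts. Of 14 tested cell cycle genes, 10 were higher in forestomach than in lung, where 19.3% of all genes were. Against liver 12 of them were higher in forestomach, where 23.7% of all genes were. Both counts fell to 0 with median centring. In liver against lung, 6 of 8 B cell, 5 of 8 T cell, 7 of 7 tested smooth muscle and 7 of 7 tested airway genes were lower. So were 8 of 10 cardiac muscle, 3 of 5 tested erythroid and 2 of 6 tested adipocyte genes. Among all genes 26.9% were lower there, a share near that of the adipocyte genes. Counts of these cell type genes higher in liver are not given. The part of all these genes in the members' differences was not tested.

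Chrysene was not followed by a call for any member. In each of the 9 comparisons of a dose with D0, 0 members passed both limits. Among all genes the share that passed was 0% in lung for D1 and for D2, 0% in liver for every dose, and 0% in forestomach for D1 and for D2. For D3 it was 0.153% in lung and 0.00949% in forestomach. The smallest limma adjusted p of a member at D3 was 0.182 in lung, 0.965 in liver and 0.338 in forestomach.

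Counts by limma's p before adjustment, with a limit of 0.05, are given beside the share of all genes. In lung, 0 members were higher and 4 lower at D1 (2.88% and 2.89% of all genes), 0 and 0 at D2 (2.84% and 3.28%), and 7 and 4 at D3 (6.45% and 9.95%). In liver, 0 were higher and 2 lower at D1 (1.94% and 1.77%), 0 and 0 at D2 (2.08% and 1.92%), and 1 and 0 at D3 (2.58% and 2.39%). In forestomach, 0 were higher and 2 lower at D1 (2.51% and 1.98%), 0 and 9 at D2 (3.69% and 4.11%), and 4 and 1 at D3 (6.13% and 3.74%). The 7 members higher in lung at D3 include Rpl3l, which was above background in 0 of 5 D0 lungs and was high on 2 of the D3 lungs, and the 4 lower include Rpl39l, which was above background in 0 of 5 D3 lungs. The 9 lower in forestomach at D2, which include Rps28, Rpl19 and Rpl7, make 11.7% of those tested, above the share of all genes, with a smallest limma adjusted p of 0.559.

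The shifts of the whole set with dose were small. The median member change, in order of dose, was -0.05, -0.02 and 0.01 in lung, -0.04, -0.02 and -0.01 in liver and -0.07, -0.13 and 0.01 in forestomach. At D1, 63 of 79 members lay below 0 in lung and 67 of 77 in liver, and at D2 53 of 77 did in forestomach. The medians over all genes in these comparisons were 0.0016, -0.0048 and -0.0039, and the share of all genes below 0 is not given. These counts are for the deposited LOWESS ratios. All comparisons in a tissue share its D0 arrays, and the members move together between arrays. Over the 76 members above background on all arrays, the mean was -0.12 ± 0.04 at D0 and -0.10 ± 0.03 at D3 in lung (SD, n = 5 each), -0.92 ± 0.08 and -0.94 ± 0.04 in liver, and 0.03 ± 0.21 and 0.07 ± 0.09 in forestomach. With Rpl3l and Rpl39l included, the lung means were -0.19 ± 0.04 and -0.15 ± 0.05, and Rpl3l was high on 2 of the D3 lungs. With median centring the D3 median was 0.23 in lung, -0.13 in liver and 0.41 in forestomach, beside 0.13, -0.05 and 0.22 over all genes. A loess fit of the scanner signals gave 0.01, -0.12 and -0.16, so in forestomach the sign of the median depended on the normalization. Within slides, which held 1 or 2 arrays each of D0 and D3, the forestomach median was -0.11, 0.16 and -0.06.

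**Figure D4:**
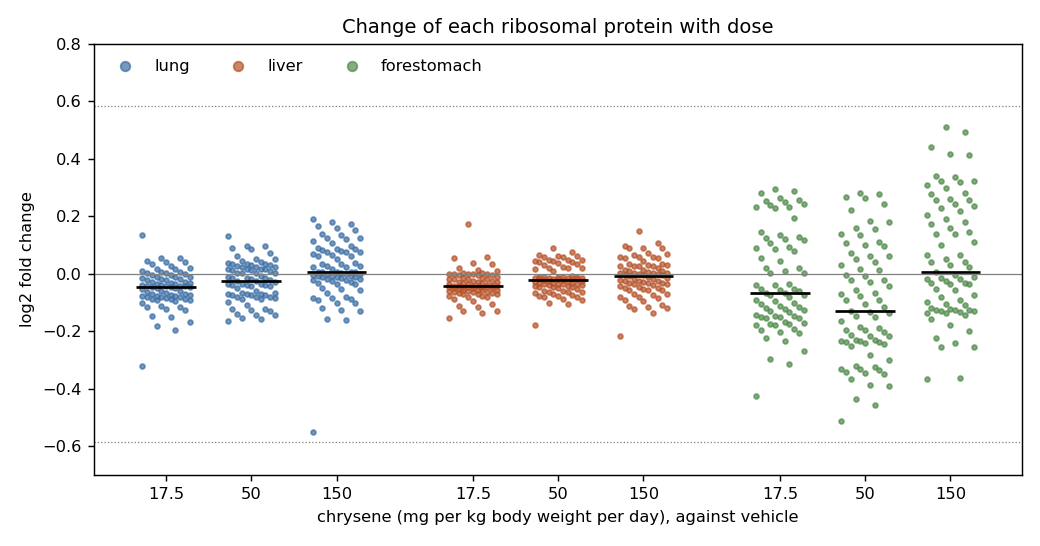
Log2 fold change of each member at 17.5, 50 and 150 mg per kg body weight per day against vehicle (points) with the median (bars) in 3 tissues. No drawn point passes the 1.5-fold limits (dotted lines) and medians lie between -0.13 and 0.01, though median centring moves the D3 medians of lung, liver and forestomach to 0.23, -0.13 and 0.41. Rpl3l is not drawn.

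Among members above background on all arrays, those with the smallest p at D3 changed little in lung and liver and more in forestomach. Rps4x, the X-linked form of a small subunit protein, read -0.59, -0.64, -0.65, -0.62 and -0.71 in D0 lungs and -0.54, -0.48, -0.55, -0.39 and -0.48 in D3 lungs. The groups did not overlap, but the change was 0.15 ± 0.05 (limma adjusted p = 0.182). Rpl23a followed in lung at 0.17, and the smallest p among negative values were those of Rpl39l, Rpl9 (-0.16) and Rpl41 (-0.13), the last pair of which turned to 0.07 and 0.10 with median centring. Rpl39l was above background on 3 of 5 D0 and 0 of 5 D3 lung arrays and is given without a fold.

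In liver, Rpl4, a large subunit protein lining the peptide tunnel, read -1.28, -1.45, -1.48, -1.50 and -1.45 at D0 and -1.26, -1.29, -1.34, -1.26 and -1.28 at D3. The groups overlapped through the first mouse alone, and the change was 0.15 ± 0.06 (limma adjusted p = 0.965). With the array column on the slide as a covariate this change was -0.0037. Rpl17, Rpl13a and Rpl28 had the smallest p among negative values, at -0.12, -0.12 and -0.11.

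In forestomach the p53-linked Rpl5 read -0.43, -0.18, -1.10, -0.94 and -0.12 at D0 and 0.15, -0.11, 0.09, -0.25 and -0.09 at D3. The D3 values lay in the upper part of the D0 range or above it (0.51 ± 0.18, limma adjusted p = 0.338). Rps27a read -0.33, 0.06, -0.63, -0.59 and 0.24 at D0 and 0.22, 0.03, 0.23, 0.07 and 0.27 at D3 (0.42 ± 0.15, limma adjusted p = 0.34), and its groups overlapped. For both genes the D0 values were more spread than those of D3.

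For no member did the D3 effect pass limma's test of a difference between tissues. The count was 0 for liver against lung, where 0% of genes passed, 0 for forestomach against lung, where 0.759% did, and 0 for forestomach against liver, where 0.0968% did. The smallest limma adjusted p of a member was 0.763 for liver against lung, 0.11 for forestomach against lung and 0.18 for forestomach against liver. Rpl28, a large subunit protein, had the smallest p for forestomach against lung, with a difference in effect of -0.41 ± 0.13. Before adjustment, 2, 10 and 10 members had a limma p up to 0.05. The share of all genes at that limit is not given, so these counts cannot be set against it. Without mouse 5, 1 member passed both limits for forestomach against lung.

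The related lists held 1 call. At D3, 0 of 23 TOP-class genes, 0 of 11 regulators and 0 of 77 mitochondrial ribosomal proteins were called in any tissue. Of 33 biogenesis genes 1 was called, Ltv1, a factor for export of the small subunit, which rose by 0.80 ± 0.11 in forestomach (limma adjusted p = 0.0418) and was not called under the other 3 normalizations. No cell type list had a call at D3.

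Rpl3l, the muscle copy of the large subunit protein Rpl3, stood apart in lung. On the D3 arrays of mice 17 and 19 its log2 ratio was 4.76 and 4.75, while on the other 16 lung arrays it lay between -0.16 and 0.64, and only mice 13 and 16 were above background among those. The same 2 arrays had skeletal muscle means of 5.48 and 5.41, against -0.86 to -0.27 on the rest, and keratinocyte means of 3.64 and 3.98, against -0.34 to -0.09. Rpl3l in D3 lungs against D0 had a limma adjusted p of 0.263, and no fold is given since none of the D0 lungs was above background. Over the 76 members above background on all arrays, which leave out Rpl3l, the mean on these arrays was -0.11 and -0.056, against -0.19 to -0.096 in D0 lungs. Without them 0 members were called at D3 in lung and the median change was 0.00.

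**Figure D5:**
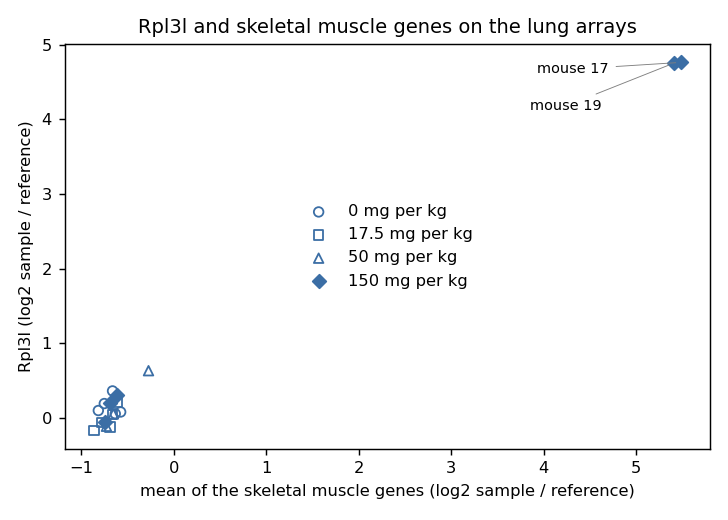
Rpl3l (y axis) against the mean of the skeletal muscle genes (x axis) on the 18 lung arrays, both as log2 sample over reference, with a symbol for each dose. The D3 mice 17 and 19 lie at 4.76 and 4.75 with muscle means of 5.48 and 5.41, and the other 16 arrays at 0.64 or below.

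Within a tissue the members deviated together from their dose-group means. The mean Pearson r over pairs of members was 0.12 in lung (18 arrays), 0.31 in liver (19) and 0.29 in forestomach (19), against 0.01 or less over pairs of all genes, and 0.10, 0.03 and 0.18 among mitochondrial ribosomal proteins. Within slides it was 0.15, 0.33 and 0.33. In each tissue small subunit pairs had the higher mean r (0.15, 0.35 and 0.34) and large subunit pairs the lower (0.10, 0.28 and 0.25). These are descriptions over arrays that share RNA, slide and LOWESS curve, and bright probes share the end of that curve.

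The median member also varied less than the median gene, by little in forestomach. The members' median SD around the dose-group means was 0.09 in lung, 0.09 in liver and 0.25 in forestomach, against 0.16, 0.15 and 0.29 over all genes. Many members are among the brightest probes, and genes of like brightness were not compared. The least variable were Rpl17, Rpl18 and Rpl14 in lung (SD of 0.04 each), Rpl19, Rpl6 and Rps7 in liver, and Rpl24, Rpl32 and Rpl23 in forestomach. The most variable were Rpl3l (1.36), Rpl39l and Rpl36a in lung, Rps21 (0.25), Rps15a and Rpl9 in liver, and Rps21 (0.43), Rpl36 and Rps19 in forestomach. Rps21 therefore led both liver and forestomach. Its D0 values in liver fell to -2.13 and in forestomach ran from -0.47 to 0.92.

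Outside the set, the 10 genes whose deviations were most like the members' mean over the 3 tissues (mean r of at least 0.77, same arrays) were 9 accessions without a symbol and Eef1b2, a subunit of the factor that recharges elongation factor 1A (r of 0.68, 0.74 and 0.90 in lung, liver and forestomach). Mif, a cytokine gene, came next among named genes with a mean r of 0.76. The median member, set against the mean of all members, had 0.50, and the median of all 17381 genes compared was -0.04.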

How the data were processed

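The authors deposited a table of log2 ratios of Cy5 over Cy3 per probe, LOWESS-normalized array by array from median signals whose background was not subtracted. Per the file headers, the scanner files hold median intensity per spot from Feature Extraction 10.7.3.1, with calls for spots above background, saturated or non-uniform. Correlations between the deposited ratios and a loess fit of these intensities were 0.977 to 0.998. Dyes were not swapped, so dye bias cancels only between arrays. The methods name MAANOVA, in whose place limma 3.58.1 (R 4.3.3, lmFit and eBayes, two-sided, Benjamini-Hochberg over all probes) was used.

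Probes above background in Cy5 on at least 3 arrays were tested, on all arrays of a tissue for dose and on all 56 for tissue pairs. Spots called non-uniform were left out, which concerned 2 member values. Each gene was read from its brightest probe. Arrays give no counts, and the number of mice limits the precision. Groups came from the labels, and p values for dose measure the spread between the mice of a tissue. For tissue pairs, limma pooled the spread within groups over all 3 tissues. The median member SD was 0.25 in forestomach and 0.09 in lung and in liver. Errors and p values may therefore be too small for forestomach differences and too large for liver minus lung.

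Named were, per comparison, the members with the largest called differences or the smallest p, paralogs, genes chosen by role, the most and least variable members, the genes most like the set and called genes of the lists, some of which are not reported here. Lists of translation factors, biogenesis genes, regulators and cell types came from general knowledge. The members and lists were chosen with earlier results of these data known. Mouse numbers pair tissues of 1 animal. Deviations of paired arrays correlated at a median of 0.16 (liver and lung, over 0.1 in 14 of 18 mice), 0.02 (forestomach and lung, 2 of 18) and 0.08 (forestomach and liver, 7 of 19). The fits were tested on simulated data. Alternatives were other normalizations, filters, probe choices, slide, column and mouse terms, and omission of arrays.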

Additional observations from a re-analysis of the deposited data

Results flagged for a closer look

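Dixon's test marked 7 values as far from the rest of their group, among 11 groups tested for the mean of the members and 40 for single genes, where chance marks about 1 in 20. The mean of the members stood low in the lung of D0 mouse 5 (-0.26) and in the liver of D2 mouse 11 (-0.99). In the D0 lungs, Rps27 was low in 1 mouse at 0.84, Rps27l in another at -0.38 and Rps24 at 0.43. In D0 forestomach, Rps27 was low in mouse 3 at 0.27, the array that also had the lowest mean of all members. In D0 liver, Rpl4 was high in mouse 1 at -1.28. The cause of these values was not tested.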

How the results depend on the processing

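LOWESS assumes that bright probes balance, which ribosomal proteins may not, and forestomach slides differed in signal. Tissue and slide cannot be told apart, nor array column and dose in lung, and the D1 effect with array column could not be fitted elsewhere. Mouse number was also used as a replicate block (paired tissues). The counts higher and lower and the medians were then 2, 60 and -0.84 for liver minus lung. They were 9, 2 and 0.15 for forestomach minus lung, and 65, 1 and 0.95 for forestomach minus liver. Each D0 mouse had an array of every tissue, so the block could not move these medians. It could move the counts through the errors, and it changed none. In all settings run, 0 members were called at any dose. The omission of slides 1 and 2 was added after the data were seen and left 2 D0 forestomach arrays.

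Member counts under the alternatives stand without the share of all genes called in the same setting. Liver minus lung kept its sign in the median, at -1.09 with own loess, -1.37 with median centring (0 higher, 24 lower), -1.13 with normexp and -0.74 with the mean over probes. Leaving out a mouse gave 58 to 63 lower and medians of -0.86 to -0.81. Forestomach minus lung gave 28 higher, 1 lower and a median of 0.44 with own loess, 0, 33 and -1.39 with median centring, 26, 1 and 0.43 with normexp, 14 higher and 1 lower with the mean over probes, 1 lower with means over the dose groups, and 0 lower without forestomach slides 1 and 2, or 64, 1 and 1.02 when median centring was added. Leaving out a mouse gave 7 to 14 higher (14 without mouse 2 or 3) and 0 to 1 members whose D3 effect differed (1 without mouse 5). Forestomach minus liver had a median of 1.56 with own loess, 1.55 with normexp and -0.013 with median centring (0 higher), and 76 higher, 0 lower and 2.42 with median centring and without slides 1 and 2. Leaving out a mouse gave 62 to 69 higher and 1 to 2 lower (2 without mouse 2 or 5).

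The D3 median was 0.23 in lung and 0.41 in forestomach with median centring. In liver it was -0.12 with own loess, -0.13 with median centring, -0.10 with normexp and -0.16 with array column, and in forestomach -0.16 with own loess and 0.16 on slide 2 alone. In forestomach normexp gave -0.14.

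Single genes changed sign as follows, and the cause was not tested. With median centring the D3 change was 0.070 for Rpl9 and 0.10 for Rpl41 in lung, -0.062 for Rpl37 and -0.018 for Rpl4 in liver, and 0.19 for Rpl18 and 0.18 for Rpl28 in forestomach. Rpl37 in liver was -0.056 with own loess, -0.049 with normexp and -0.16 with array column, which also gave -0.0037 for Rpl4 and -0.054 for Rpl5 in liver and -0.10 for Rpl35 and 0.0072 for Rpl28 in forestomach. Between tissues, median centring gave -0.030 for Rpl36al in liver minus lung. In forestomach minus lung it gave -1.68 for Rps21, -1.25 for Rpl4, -0.83 for Rps2, -1.64 for Rpl36al and -1.83 for Rps27l. In forestomach minus liver it gave -0.12 for Rpl39, -0.046 for Rps4x, -0.14 for Rplp1, -0.27 for Rpsa, -0.42 for Rpl5 and -0.10 for Rps27a.

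Without slides 1 and 2, Rpl36al was 0.26 in forestomach minus liver. With median centring added, Rpl10 was 0.45 and Rplp2 0.60 against lung, and Rpl36al was 1.15, Rps27l 0.094 and Rpl10 1.49 against liver. Rpl10 in forestomach minus liver was 0.37 with own loess and 0.36 with normexp. Means over the dose groups gave -0.11 for Rps27l against lung and 0.028 for Rpl36al against liver, and leaving out a mouse gave -0.070 to 0.16 and -0.33 to 0.053 for these genes.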
